A study of Mus musculus with 28 samples.

Results

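The comparison described here sets 3 hippocampal RNA libraries of 5xFAD mice that lack Zbp1 against 3 libraries of 5xFAD mice that carry it, 6 of the 28 libraries of the series, across every gene expressed in them. Of 55487 gene IDs in the count table, 21274 passed the filter on low counts and were tested. All groups were hippocampus of mice aged 9 months, taken after behavioural testing, and the libraries were made from polyA RNA. The groups used are Zbp1-/- 5xFAD (called Zbp1 KO 5xFAD below), 5xFAD, Zbp1-/- without the transgenes (Zbp1 KO) and wild type (WT), with 3 libraries each. The Zbp1-/- line had its own WT mice, descended from a common ancestor. A second line of the series, Ripk1 D138N, serves as a comparison: Ripk1D138N/D138N 5xFAD and the 5xFAD mice of that cohort, 3 libraries each. In 5xFAD mice, mutant human transgenes are driven by the Thy1 promoter in neurons, so transgene expression is neuronal and is set by that promoter rather than by the App locus. Whether the 3 libraries of a genotype are 3 animals is not in the labels, and p-values therefore measure the spread from library to library only.

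ZBP1 is an interferon-inducible sensor of Z-form DNA and RNA. Through its RHIM motifs it binds RIPK1 and RIPK3 and can start necroptosis, apoptosis and inflammatory signalling. In brains with amyloid plaques, microglia gather around the deposits and shift from a homeostatic programme to a disease-associated one, in which TREM2 and its adaptor TYROBP, apolipoprotein E, lysosomal proteases and complement are prominent, while astrocytes become reactive and interferon-induced genes are expressed in part of the glia.

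Promoters of some interferon-induced genes described below hold the core of the interferon-stimulated response element. The core was searched as GAAA, any 2 bases, GAAA on both strands, in the 250 bases before the start of each gene in RefSeq promoters (GRCm38.p6). It was present in 978 of 32851 promoters (2.98%). The counts that follow are per gene, a gene counting if any of its promoters held the core. Of all genes tested with a promoter, 435 of 13441 held it (3.24%). It was present in 13 of the 32 genes with a promoter in a list of type I interferon response genes (40.6%). In an interferon gamma response list it was present in 11 of 15 (73.3%). It was present in 3 of 25 genes of a disease-associated microglia list (12%) and in 0 of 13 of a homeostatic microglia list. Among the genes that DESeq2 called lower in Zbp1 KO 5xFAD it was present in 12 of 117 with a promoter (10.3%). A match is a description of the sequence only. The windows below belong to genes whose values follow, and are written on the gene's strand; capitals mark every match in the window (2 overlapping matches in Oas1a, Gbp3 and Irgm1), and a match reads TTTC, 2 bases, TTTC where it lies on the other strand.
Oas1a, chr5:120907526-120907570, minus strand, first match 20 to 11 bases before the start: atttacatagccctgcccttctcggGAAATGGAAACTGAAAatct
Gbp3, chr3:142559974-142560033, plus strand: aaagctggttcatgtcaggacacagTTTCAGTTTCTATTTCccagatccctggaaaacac
Irgm1, chr11:48871421-48871475, minus strand: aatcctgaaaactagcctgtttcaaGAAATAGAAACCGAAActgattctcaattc
B2m, chr2:122147523-122147582, plus strand: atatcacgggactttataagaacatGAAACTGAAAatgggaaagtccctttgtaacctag
H2-T23, chr17:36032791-36032850, minus strand: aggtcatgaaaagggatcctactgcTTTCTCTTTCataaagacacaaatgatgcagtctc
Ctss, chr3:95526740-95526785, plus strand: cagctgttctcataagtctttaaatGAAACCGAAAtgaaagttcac
Of the 12 genes with the strongest evidence for a lower level, 10 had a promoter in the set, and Ctss, H2-T23 and Ncf1 held the core.

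Levels below are in CPM, read counts scaled to a common library size with TMM factors, and fold changes are on the log2 scale with their standard error (SE). Zbp1 itself was nearly silent without the transgenes and low with them. It had 0.351, 0.321 and 0.298 CPM in Zbp1 KO 5xFAD libraries, against 1.87, 1.79 and 3.58 CPM in 5xFAD libraries. The groups did not overlap, and the values rest on 9 to 11 counts per Zbp1 KO 5xFAD library and 52 to 125 counts per 5xFAD library. The log2 fold change was -2.89 ± 0.88 (SE), which edgeR's quasi-likelihood test did not call after Benjamini-Hochberg adjustment (adjusted p = 0.446). The origin of the counts that remained in Zbp1 KO 5xFAD was not tested. Ripk1 (8.60, 10.7 and 10.1 CPM in Zbp1 KO 5xFAD, 12.96, 9.80 and 10.8 CPM in 5xFAD) and Mlkl, the executor of necroptosis, overlapped between the groups. Ripk3, the kinase that phosphorylates MLKL, had 0.510, 0.392 and 0.463 CPM in Zbp1 KO 5xFAD and 0.933, 0.517 and 0.630 CPM in 5xFAD, with a log2 fold change of -0.60 ± 0.80 (edgeR, adjusted p = 0.841).

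The 6 libraries held 27.1 to 34.5 M counts, and the smallest of the 12 libraries of the cohort was WT 1 with 8.4 M. Library 5xFAD 2 stood apart: it had 791 CPM of the nuclear RNA Malat1 and 54.3 CPM of Prox1, a marker of dentate gyrus neurons, while the other 5 libraries had 1938 to 2971 CPM of Malat1 and 163 to 179 CPM of Prox1. Marker genes of hippocampal subfields, 18 tested, summed to 1350 to 1419 CPM in Zbp1 KO 5xFAD and 1211 to 1405 CPM in 5xFAD, so the labelled tissue had its markers in all 6. Library 5xFAD 3 differed in another way and lay closest to the knockouts for most of the glial genes below. Thy1, whose promoter drives the transgenes, had 1583, 1485 and 1468 CPM in Zbp1 KO 5xFAD and 2159, 2040 and 1462 CPM in 5xFAD, so that 5xFAD 3 was at the knockout level. The Thy1 log2 fold change was -0.32 ± 0.13 (edgeR, adjusted p = 0.526). App had 1447, 1359 and 1446 CPM in Zbp1 KO 5xFAD and 1271, 1398 and 1407 CPM in 5xFAD. Because Thy1 and many glial genes are both lowest in 5xFAD 3 among the 5xFAD libraries, medians with Thy1 as a covariate are given beside the lists. In that fit 314 of all genes (1.48%) were lower at an unadjusted p under 0.05.

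The calls of DESeq2 and of the authors were one-sided: genes of microglia and of the immune response were among those lower in Zbp1 KO 5xFAD, and few genes were called higher. Counts at an unadjusted p and counts of groups that did not overlap were less uneven. With all libraries of the cohort in one fit, edgeR called 0 genes at an adjusted p under 0.05 (0%), the smallest adjusted p being 0.112. At an unadjusted p under 0.05 it gave 1233 lower genes (5.8%) and 642 higher genes (3.02%). DESeq2 on the same counts called 153 genes lower (0.719%) and 3 higher (0.0141%), while limma-voom called 0. The 3 and 3 libraries did not overlap for 1678 genes that were lower (7.89%) and 1362 that were higher (6.4%). The authors' deposited table, whose fold changes run as 5xFAD over Zbp1 KO 5xFAD and so carry the opposite sign, lists 252 of 17994 genes as higher in 5xFAD (1.4%) and 8 as lower in 5xFAD (0.0445%). Of those 252 genes in the authors' deposited table, 251 were tested here, and all 251 had a negative log2 fold change and an unadjusted p under 0.05 in edgeR, while DESeq2 here called 126 of them. Both rest on the same counts, and the largest adjusted p among the 252 in the authors' deposited table was 0.0979. The number of edgeR calls depended on 1 library: without 5xFAD 3, 82 genes were called lower, 78 of them also among the 153 of DESeq2, and none higher. The median log2 fold change over all genes was -0.01.

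**Figure D1:**
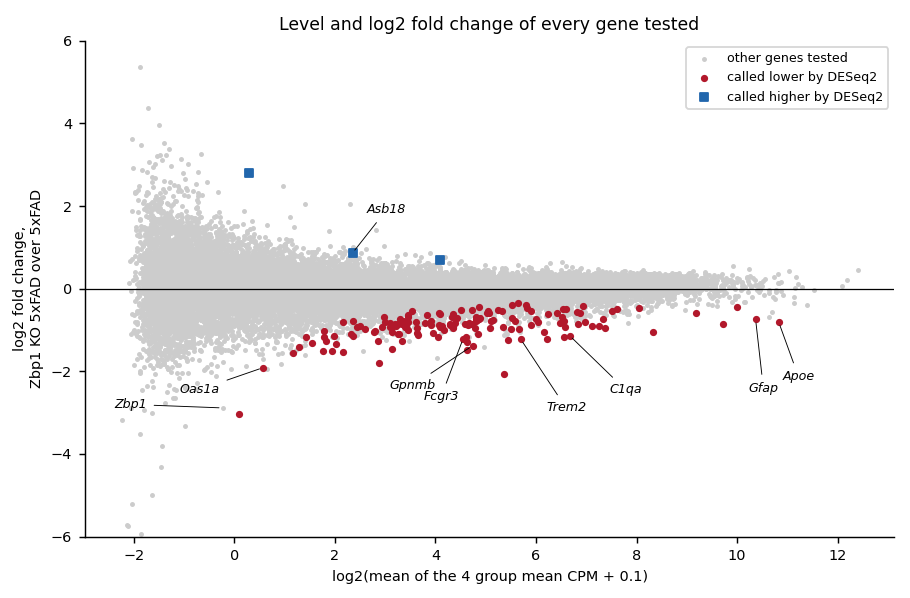
Log2 fold change of Zbp1 KO 5xFAD over 5xFAD (y axis) against the log2 mean level in CPM (x axis) for the genes tested, 1 point per gene, with 1 gene outside the axis. The 153 genes that DESeq2 called lower (red) spread over the whole range of levels up to Apoe and Gfap, the 3 called higher are blue squares, and edgeR called 0.

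Genes of small p among those lower and not overlapping were, in order, Fcgr3, C1qb, Ly86, Ncf1, Tap1, C1qa, H2-T23, Trem2, Ctss, Myo1f and Laptm5, and most are genes of microglia and macrophages. Fcgr3, an activating receptor for antibody Fc regions, had 22.4, 23.7 and 21.6 CPM in Zbp1 KO 5xFAD and 50.9, 64.9 and 41.3 CPM in 5xFAD. Its log2 fold change was -1.22 ± 0.18 (edgeR, adjusted p = 0.112; DESeq2, adjusted p = 2.57e-06). Its highest Zbp1 KO 5xFAD library had 23.7 CPM and its lowest 5xFAD library 41.3 CPM. Not overlapping was a condition for naming the 11 genes, so their separation is no added result. It held in the lower direction for 7.89% of all genes. Ly86, a partner of the Toll-like receptor homologue CD180, had 26.4, 26.2 and 22.1 CPM in Zbp1 KO 5xFAD against 63.4, 67.7 and 37.8 CPM in 5xFAD. Ncf1, a subunit of the phagocyte NADPH oxidase, had 12.1, 11.7 and 11.5 CPM in Zbp1 KO 5xFAD against 26.3, 31.3 and 18.8 CPM in 5xFAD. In each of these, 5xFAD 3 was the lowest of its group. Myo1f, a motor protein of leukocytes, and Laptm5, a lysosomal membrane protein of blood-lineage cells, had log2 fold changes of -1.08 ± 0.19 and -0.92 ± 0.17. Across these 11 genes the log2 fold changes ran from -1.22 to -0.92, the edgeR adjusted p from 0.112 to 0.116, and DESeq2 called all 11.

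**Figure D2:**
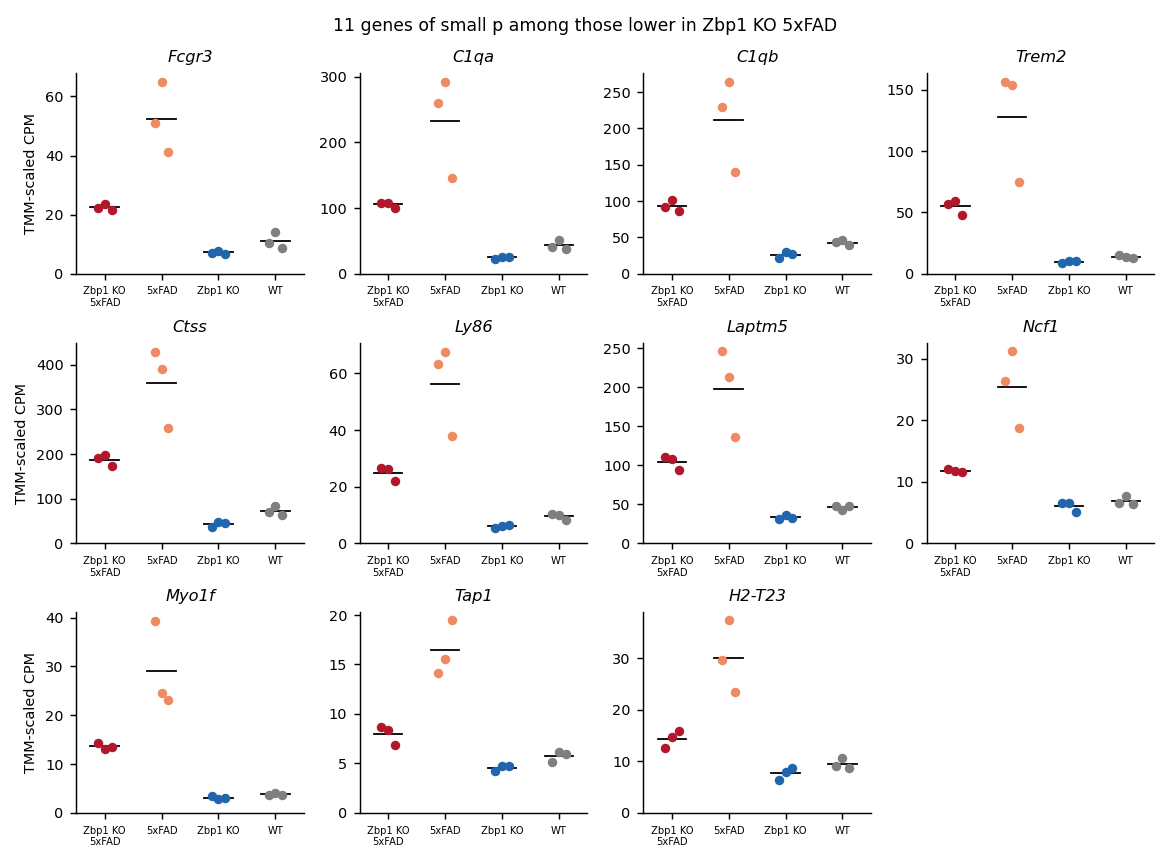
TMM-scaled CPM per library (y axis, linear, from 0) of 11 genes of small p among those lower in Zbp1 KO 5xFAD, for Zbp1 KO 5xFAD, 5xFAD, Zbp1 KO and WT, with 1 point per library and a line at the mean of 3. The genes were picked for having the 3 Zbp1 KO 5xFAD libraries below the 3 5xFAD libraries. In each panel the Zbp1 KO 5xFAD libraries lie above the libraries without transgenes, and for most genes 5xFAD 3 (right point) is the lowest 5xFAD library.

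The disease-associated microglia programme was lower as a group. All 30 members had a negative log2 fold change, with a median of -0.92; 22 had an unadjusted p under 0.05 and 23 did not overlap between groups, where the shares over all genes were 5.8% and 7.89%. edgeR called 0 of the 30 and DESeq2 called 13 (0.719% of all genes). Trem2, the lipid-sensing receptor that drives the programme, had 57.1, 59.8 and 47.8 CPM in Zbp1 KO 5xFAD and 156, 154 and 74.8 CPM in 5xFAD (log2 fold change -1.22 ± 0.22). Tyrobp, its signalling adaptor, had 27.1, 27.1 and 20.4 CPM in Zbp1 KO 5xFAD and 69.0, 79.5 and 32.8 CPM in 5xFAD (-1.28 ± 0.30). Levels in the knockouts were thus under those of 5xFAD 3, the lowest 5xFAD library, and well above the means without transgenes, 9.99 CPM of Trem2 in Zbp1 KO and 13.8 CPM in WT. Gpnmb, a glycoprotein of lipid-laden phagocytes, had 26.9, 25.1 and 23.5 CPM in Zbp1 KO 5xFAD and 86.1, 70.0 and 40.4 CPM in 5xFAD (-1.38 ± 0.25; DESeq2, adjusted p = 0.000107). Spp1, which encodes osteopontin, had 25.4, 24.5 and 16.5 CPM in Zbp1 KO 5xFAD and 77.9, 77.7 and 30.9 CPM in 5xFAD (-1.49 ± 0.32). Cst7, a protease inhibitor that marks plaque-associated microglia, had 38.5, 36.9 and 25.1 CPM in Zbp1 KO 5xFAD and 111, 107 and 48.6 CPM in 5xFAD (-1.41 ± 0.55). These 3 genes also did not overlap, and the spread was wider within 5xFAD than within the knockouts. Apoe, the most abundant member, had 1523, 1807 and 1701 CPM in Zbp1 KO 5xFAD and 3235, 3583 and 2006 CPM in 5xFAD (-0.81 ± 0.19; edgeR, adjusted p = 0.212).

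Genes of homeostatic microglia were lower as well, so that both programmes differed in one direction. The median over 20 members was -0.76. At an unadjusted p under 0.05, 17 had a lower level (5.8% of all genes) and 1 a higher level (3.02% of all genes). DESeq2 called 12 of the 20 (0.719% of all genes). Cx3cr1, the fractalkine receptor, had 118, 98.6 and 85.2 CPM in Zbp1 KO 5xFAD and 221, 167 and 135 CPM in 5xFAD (-0.79 ± 0.16). Csf1r, the receptor on which microglial survival depends, had 183, 178 and 162 CPM in Zbp1 KO 5xFAD and 360, 310 and 203 CPM in 5xFAD (-0.74 ± 0.15). P2ry12, the purinergic receptor that surveying microglia lose near plaques, had 62.3, 58.7 and 46.5 CPM in Zbp1 KO 5xFAD and 102, 106 and 57.4 CPM in 5xFAD; the groups overlapped and the log2 fold change was -0.66 ± 0.19 (edgeR, adjusted p = 0.382). In bulk tissue, fewer cells of a type and less RNA per cell cannot be told apart. Set against Csf1r within each library, a ratio chosen after its values were seen, the log2 ratio was lower in Zbp1 KO 5xFAD for Cst7 (difference -0.64), Gpnmb (-0.61), Trem2 (-0.45) and C1qa (-0.38), without overlap. Each had an exact two-sided permutation p of 0.1, the smallest that 3 against 3 libraries allow (0.15 after Benjamini-Hochberg adjustment over the 9 ratios computed). The ratio of P2ry12 to Csf1r overlapped (difference 0.08, exact permutation p = 0.6).

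Each microglial list kept its sign without any single library. The median of the disease-associated list was -0.78, -0.88 and -1.03 without 5xFAD 1, 2 and 3, and that of the homeostatic list -0.62, -0.62 and -0.92. With Thy1 as a covariate the medians were -0.49 and -0.42, with 14 of 30 and 12 of 20 members at an unadjusted p under 0.05 (1.48% of all genes in that fit).

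**Figure D3:**
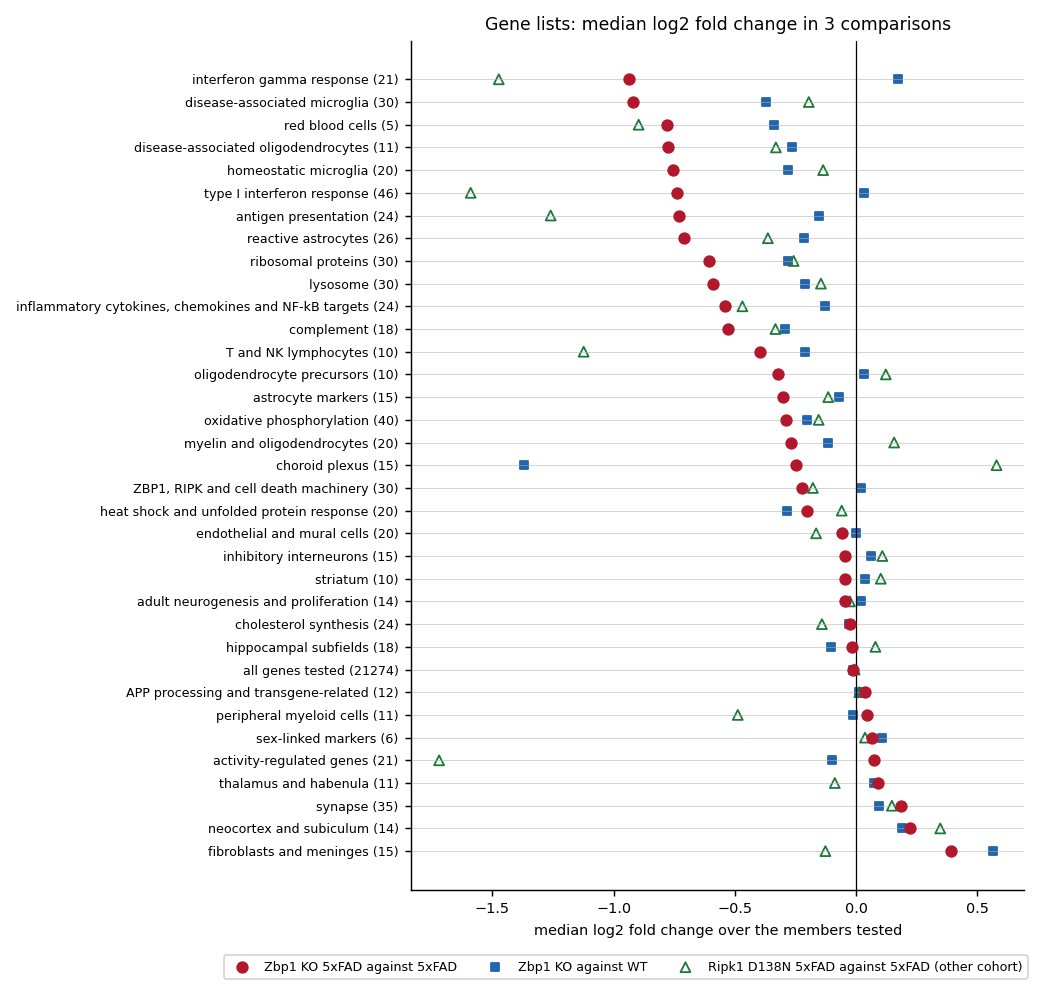
Median log2 fold change of each gene list in Zbp1 KO 5xFAD over 5xFAD, beside the medians in Zbp1 KO over WT and in Ripk1 D138N 5xFAD over 5xFAD. Microglial, interferon, antigen presentation and lysosomal lists lie between -0.94 and -0.59 in Zbp1 KO 5xFAD over 5xFAD, and the synapse list lies at 0.18.

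Complement and lysosomal genes followed the same direction. Of 18 complement genes tested, 9 had an unadjusted p under 0.05 with a lower level and DESeq2 called 4 (median -0.53). The shares over all genes were 5.8% and 0.719%. The 3 chains of C1q, the initiator of the classical pathway and made in brain mostly by microglia, were each called lower by DESeq2. C1qa had 108, 108 and 101 CPM in Zbp1 KO 5xFAD and 260, 292 and 146 CPM in 5xFAD (-1.14 ± 0.19). C1qb had 91.4, 102 and 86.1 CPM in Zbp1 KO 5xFAD and 229, 264 and 140 CPM in 5xFAD (-1.18 ± 0.18), and C1qc had a log2 fold change of -1.21 ± 0.22. The knockout libraries lay in a narrow band for each chain. C4b, the complement component made by reactive glia, had 449, 440 and 420 CPM in Zbp1 KO 5xFAD and 796, 515 and 578 CPM in 5xFAD (-0.53 ± 0.15). Of the 30 lysosomal genes all were negative (median -0.59). Of them 22 had an unadjusted p under 0.05 (5.8% of all genes) and DESeq2 called 15 (0.719% of all genes). Ctss, a cysteine protease of antigen-presenting cells, had 191, 198 and 172 CPM in Zbp1 KO 5xFAD and 430, 390 and 259 CPM in 5xFAD (-0.94 ± 0.17). Ctsb, a more widely expressed cathepsin, had 598, 609 and 550 CPM in Zbp1 KO 5xFAD and 978, 988 and 667 CPM in 5xFAD (-0.58 ± 0.14). With Thy1 as a covariate the lysosomal median was -0.31, with 15 of 30 members at an unadjusted p under 0.05, and the complement median was -0.35, with 4 of 18.

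Interferon-induced genes were lower in Zbp1 KO 5xFAD across most of the list. Of 46 type I interferon response genes tested, 1 of them Zbp1 itself, 45 had a negative log2 fold change (median -0.74). An unadjusted p under 0.05 was found for 29 (5.8% of all genes) and groups that did not overlap for 34 (7.89% of all genes). DESeq2 called 3 (0.719% of all genes). Oasl2, of the family of oligoadenylate synthetases, had 10.99, 12.8 and 11.9 CPM in Zbp1 KO 5xFAD and 24.98, 23.2 and 22.8 CPM in 5xFAD (-0.99 ± 0.20; DESeq2, adjusted p = 0.000435). Here 5xFAD 3 was close to the other 5xFAD libraries. Oas1a, which senses double-stranded RNA, had 0.956, 1.35 and 0.695 CPM in Zbp1 KO 5xFAD and 4.59, 3.86 and 2.89 CPM in 5xFAD (-1.91 ± 0.40). Ifit1, which binds foreign RNA ends, had 5.64, 4.56 and 5.03 CPM in Zbp1 KO 5xFAD and 10.9, 9.04 and 8.97 CPM in 5xFAD (-0.93 ± 0.30). Isg15, a ubiquitin-like modifier, had 1.53, 2.28 and 2.35 CPM in Zbp1 KO 5xFAD and 3.77, 3.48 and 2.12 CPM in 5xFAD, and the groups overlapped (-0.60). Adar, which edits double-stranded RNA and restrains ZBP1, was the member with a positive value (0.13), with overlapping groups. The median was -0.70, -0.71 and -0.73 without 5xFAD 1, 2 and 3 and -0.52 with Thy1 as a covariate, where 15 of 46 members had an unadjusted p under 0.05 with a lower level.

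The interferon gamma response list had a median of -0.94 over 21 genes tested. Of these, 13 had an unadjusted p under 0.05 (5.8% of all genes) and DESeq2 called 5 (0.719% of all genes). Gbp3, a guanylate-binding GTPase, had 8.99, 9.08 and 9.10 CPM in Zbp1 KO 5xFAD and 19.8, 13.9 and 24.96 CPM in 5xFAD (-1.11 ± 0.22; DESeq2, adjusted p = 0.00123). Irf8, a transcription factor of microglia and other myeloid cells, had 24.5, 27.8 and 18.1 CPM in Zbp1 KO 5xFAD and 51.4, 44.2 and 40.4 CPM in 5xFAD (-0.95 ± 0.22). Irgm1, an immunity-related GTPase, had 16.4, 18.2 and 17.6 CPM in Zbp1 KO 5xFAD and 25.4, 25.8 and 48.6 CPM in 5xFAD (-0.94 ± 0.24). For this list 5xFAD 3 was often the highest 5xFAD library, the reverse of its place for the microglial lists: the median was -0.55 without it, and -1.10 and -1.09 without 5xFAD 1 and 5xFAD 2. With Thy1 as a covariate the median was -1.20. Leaving out 5xFAD 3 left 7 of 21 members at an unadjusted p under 0.05 (9.23% of all genes then).

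The antigen presentation list, which holds MHC class I genes with their peptide supply and the class II genes H2-Aa, H2-Ab1, H2-Eb1, H2-DMa, H2-DMb1 and Cd74, was lower too. All 24 members were negative, with a median of -0.73 and 17 members at an unadjusted p under 0.05 (5.8% of all genes). DESeq2 called 5 (0.719% of all genes). Tap1, which pumps peptides into the endoplasmic reticulum, had 8.64, 8.40 and 6.85 CPM in Zbp1 KO 5xFAD and 14.2, 15.6 and 19.5 CPM in 5xFAD (-1.04 ± 0.18). H2-T23, a non-classical class I molecule, had 12.6, 14.7 and 15.8 CPM in Zbp1 KO 5xFAD and 29.6, 37.4 and 23.4 CPM in 5xFAD (-1.07 ± 0.18). B2m, the class I light chain, had 129, 145 and 152 CPM in Zbp1 KO 5xFAD and 248, 304 and 197 CPM in 5xFAD (-0.81 ± 0.19), without overlap. Tap1 and H2-T23 were named above partly for not overlapping. The H2 class I genes resemble each other closely in sequence, so reads may have been split between them. Leaving out 5xFAD 2 gave a median of -0.53 and 9 members at an unadjusted p under 0.05 (3.36% of all genes then), and Thy1 as a covariate gave -0.62 and 8 members.

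**Figure D4:**
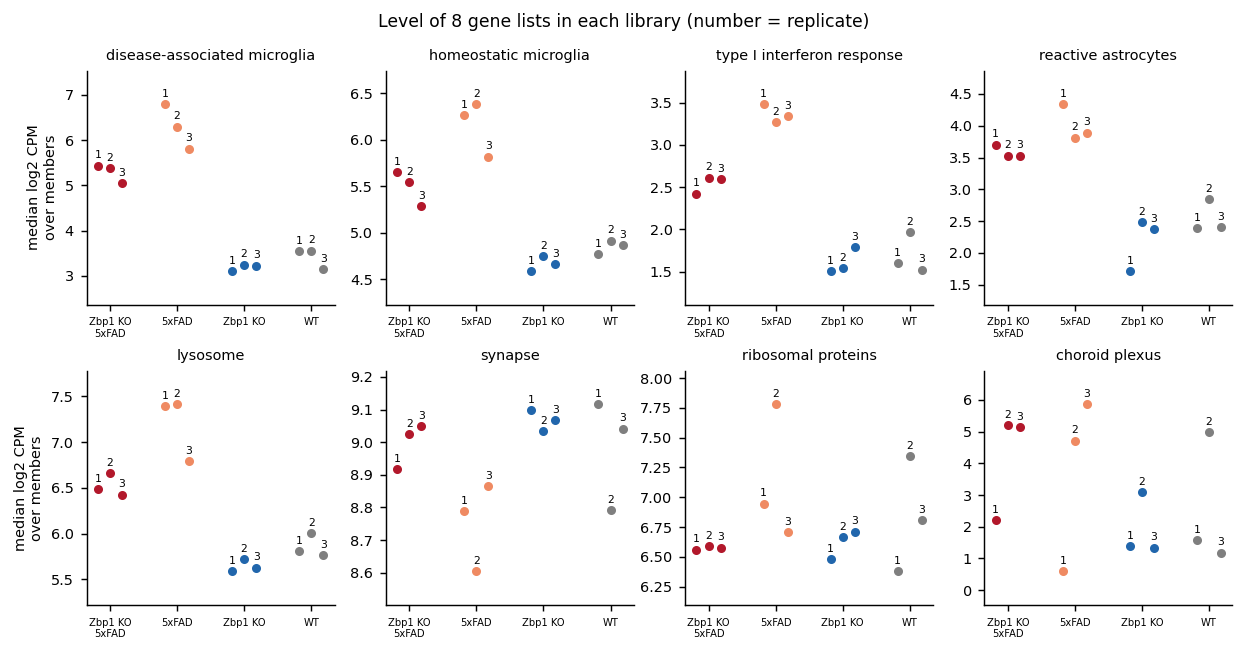
Level of 8 gene lists in each library, as the median log2 CPM over list members (y axis, a different range in each panel), for Zbp1 KO 5xFAD, 5xFAD, Zbp1 KO and WT, with 1 numbered point per library. For microglia, interferon and lysosome the 3 Zbp1 KO 5xFAD libraries lie between the 5xFAD libraries and those without transgenes, for ribosomal proteins 5xFAD 2 and WT 2 stand above the others, and for choroid plexus the groups overlap widely.

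Some cytokine and cell death genes were lower. Of 24 tested cytokine, chemokine and NF-kB target genes, 8 had an unadjusted p under 0.05 with a lower level (5.8% of all genes). The median was -0.54 and DESeq2 called 1 (0.719% of all genes). Tlr7, a receptor for single-stranded RNA, had 10.8, 10.04 and 8.51 CPM in Zbp1 KO 5xFAD and 19.1, 16.1 and 16.7 CPM in 5xFAD (-0.82). Of 30 genes of ZBP1, RIPK and cell death signalling, 7 were lower and 1 higher at an unadjusted p under 0.05 (median -0.22). Over all genes these shares were 5.8% and 3.02%, so the 1 higher gene is near the share of all genes. DESeq2 called 1 of the 30 (0.719% of all genes). Casp8, the protease that restrains necroptosis, had 3.76, 5.27 and 4.50 CPM in Zbp1 KO 5xFAD and 8.97, 6.21 and 8.86 CPM in 5xFAD (-0.83 ± 0.26; edgeR, adjusted p = 0.453). Gsdmd, the pore-forming protein of pyroptosis, had 3.95, 4.56 and 4.34 CPM in Zbp1 KO 5xFAD and 8.97, 7.62 and 6.02 CPM in 5xFAD (-0.81 ± 0.22). The higher one was Cyld, a deubiquitinase acting on RIPK1 complexes, with 183, 164 and 177 CPM in Zbp1 KO 5xFAD and 136, 124 and 153 CPM in 5xFAD (0.34 ± 0.09; edgeR, adjusted p = 0.319).

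Reactive astrocyte genes and general astrocyte markers were lower. The reactive list had a median of -0.71 over 26 tested genes, with 13 at an unadjusted p under 0.05 and 3 called by DESeq2. The shares over all genes were 5.8% and 0.719%. The reactive list holds Psmb8 and H2-D1, which the antigen presentation list also holds. Gfap, the intermediate filament that reactive astrocytes accumulate, had 1743, 1625 and 1584 CPM in Zbp1 KO 5xFAD and 3643, 2555 and 2091 CPM in 5xFAD (-0.74 ± 0.16; DESeq2, adjusted p = 0.00451). The mean without transgenes was 365 CPM in Zbp1 KO and 502 CPM in WT. Serpina3n, a secreted protease inhibitor induced in reactive astrocytes, had a log2 fold change of -0.86 ± 0.21. S100b had 80.5, 79.5 and 70.2 CPM in Zbp1 KO 5xFAD and 118, 135 and 94.5 CPM in 5xFAD (-0.59 ± 0.14), whereas Slc1a2, the main glutamate transporter, overlapped (0.22 ± 0.19). The median of the 15 astrocyte markers was -0.30, with 9 lower at an unadjusted p under 0.05 (5.8% of all genes) and 2 called by DESeq2. The reactive median was -0.36 without 5xFAD 1. With Thy1 as a covariate the reactive median was -0.35, with 7 of 26 members at an unadjusted p under 0.05, and the astrocyte marker median was -0.09, with 2 of 15.

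In a list of disease-associated oligodendrocyte genes 11 of 11 members were negative and 10 had an unadjusted p under 0.05 (5.8% of all genes). The median was -0.78 (-0.53 with Thy1 as a covariate, with 7 members). Of the 11, 7 also stand in the microglial, complement, reactive astrocyte or antigen presentation lists (Apoe, B2m, C4b, Cd63, H2-D1, H2-K1 and Serpina3n), so the list does not single out oligodendrocytes. Among 20 myelin genes 6 were lower at an unadjusted p under 0.05, against 5.8% of all genes (median -0.27), and DESeq2 called 0. Mbp, a structural protein of myelin, had 2513, 2568 and 2065 CPM in Zbp1 KO 5xFAD and 3039, 3468 and 2908 CPM in 5xFAD (-0.40 ± 0.13). Trf, the iron carrier transferrin made by oligodendrocytes, had 488, 490 and 402 CPM in Zbp1 KO 5xFAD and 654, 633 and 571 CPM in 5xFAD (-0.43). Both were without overlap.

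Synapse genes differed in the other direction. Of 35 synapse genes 30 had a positive log2 fold change (median 0.18), 10 an unadjusted p under 0.05 with a higher level, against 3.02% of all genes, and 0 were called by edgeR or DESeq2. Gria1, an AMPA receptor subunit, had 1299, 1208 and 1339 CPM in Zbp1 KO 5xFAD and 1041, 941 and 1134 CPM in 5xFAD (0.30 ± 0.10; edgeR, adjusted p = 0.465). Gabrb2, a GABA-A receptor subunit, had 146, 127 and 121 CPM in Zbp1 KO 5xFAD and 91.0, 65.8 and 120 CPM in 5xFAD (0.51 ± 0.17). In both, 5xFAD 2 was the lowest of the 6, and without it the synapse median was 0.13 with 5 members at an unadjusted p under 0.05 (1.75% of all genes then). With Thy1 as a covariate it was 0.13, with 0 members. The medians of interneuron (-0.05), activity-regulated (0.07) and hippocampal subfield genes (-0.02) lay near 0.

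Genes of small p among those higher and not overlapping were Asb18, Pcdhga3, Akap5, Ppm1k, Cyld, Mfsd6, Dip2c, Pnpla3, Lama1, Klhl23 and Crim1. Asb18, a SOCS-box protein, had 7.30, 6.02 and 6.22 CPM in Zbp1 KO 5xFAD and 3.48, 3.31 and 3.93 CPM in 5xFAD (0.86 ± 0.20; edgeR, adjusted p = 0.212; DESeq2, adjusted p = 0.00538). The authors' deposited table lists Asb18 as lower in 5xFAD, with a log2 fold change of -0.86 for 5xFAD over Zbp1 KO 5xFAD. Akap5, a scaffold of kinases at the postsynapse, had 124, 99.7 and 105 CPM in Zbp1 KO 5xFAD and 84.1, 60.3 and 83.7 CPM in 5xFAD (0.53 ± 0.14). Lama1, a laminin chain of basement membranes, had 5.86, 4.88 and 5.66 CPM in Zbp1 KO 5xFAD and 2.91, 2.86 and 2.35 CPM in 5xFAD (1.01 ± 0.29). The 3 higher genes called by DESeq2 were Asb18, Pcdhga3, a clustered protocadherin, and Gm42766.

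Marker lists of lymphocytes and of myeloid cells other than microglia were at low levels in both groups and overlapped between them. T and NK lymphocyte genes, of which 10 of 17 passed the filter on low counts, summed to 7.02 to 7.94 CPM in Zbp1 KO 5xFAD and 5.70 to 11.1 CPM in 5xFAD. Of the 10, 0 were lower at an unadjusted p under 0.05 (5.8% of all genes). Higher at that threshold was 1 (3.02% of all genes), Itgal, named after its value was seen. Genes of monocytes, neutrophils and macrophages at brain borders summed to 11.9 to 14.8 CPM in Zbp1 KO 5xFAD and 8.69 to 15.7 CPM in 5xFAD, with 0 of the 11 tested (of 15) at an unadjusted p under 0.05. The median log2 fold changes were -0.40 for the lymphocyte list and 0.04 for this myeloid list. In lists this short, counts of 0 and 1 are near the shares over all genes. The median SE was 0.80 and 0.79, so these genes cannot show whether such cells differed between the groups. Choroid plexus genes, from neighbouring tissue, varied widely in both groups (787 to 4986 CPM in Zbp1 KO 5xFAD, 239.5 to 7585 CPM in 5xFAD). The disease-associated microglia list, in comparison, summed to 5396 to 5781 CPM in Zbp1 KO 5xFAD and 6501 to 10900 CPM in 5xFAD.

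Ribosomal protein genes were lower in 30 of 30 cases, with a median of -0.61 and 27 at an unadjusted p under 0.05 (5.8% of all genes). Of the 30, 11 did not overlap between groups (7.89% of all genes). The size of the difference and its p-values depended on 1 library, 5xFAD 2. Rplp2 had 46.6, 48.7 and 45.5 CPM in Zbp1 KO 5xFAD and 70.8, 120 and 52.3 CPM in 5xFAD, with 5xFAD 2 the highest. Without 5xFAD 2 the median was -0.20 and 0 of 30 had an unadjusted p under 0.05. Oxidative phosphorylation behaved alike: its median of -0.29, with 3 of 40 members at an unadjusted p under 0.05, a share near the 5.8% of all genes, was 0.02 without 5xFAD 2 (0 of 40) and -0.43 without 5xFAD 3 (20 of 40, where 9.23% of all genes were lower). For the microglial lists, leaving out 5xFAD 2 left 23 of 30 disease-associated and 17 of 20 homeostatic members at an unadjusted p under 0.05 (3.36% of all genes then).

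Zbp1 KO and WT mice without transgenes share no library with the comparison above, though they share its estimate of the spread. There, edgeR called 0 genes (smallest adjusted p 0.942) and gave 402 lower (1.89%) and 377 higher genes (1.77%) at an unadjusted p under 0.05; DESeq2 called 1, Wdfy1, higher. The knockout had a lower level at an unadjusted p under 0.05 in both settings for 109 genes, 8.84% of the 1233 lower genes with transgenes and 27.1% of the 402 without, and for 45 genes it had a higher level in both. Without Zbp1 KO 1 the number of genes lower in both was 48, without WT 2 it was 66, and without 5xFAD 3 it was 188. The 109 are 0.512% of all genes tested, and among them were 7 complement, 5 disease-associated microglia, 4 lysosomal and 4 reactive astrocyte genes and 0 of the type I interferon list. C1qa had 23.2, 25.7 and 25.7 CPM in Zbp1 KO and 40.5, 51.6 and 37.8 CPM in WT (-0.80 ± 0.20), and Ctss had 35.7, 48.3 and 45.1 CPM in Zbp1 KO and 71.0, 83.4 and 63.9 CPM in WT (-0.76 ± 0.17). Both sets were free of overlap, as were 5.57% of all genes in the lower direction. Spi1, which encodes the myeloid transcription factor PU.1, had 2.19, 2.39 and 2.32 CPM in Zbp1 KO and 4.58, 4.95 and 4.68 CPM in WT (-1.05 ± 0.29). With transgenes Spi1 had 7.04, 8.19 and 4.93 CPM in Zbp1 KO 5xFAD and 15.8, 17.5 and 7.71 CPM in 5xFAD, where it overlapped (-1.02 ± 0.27). The medians in Zbp1 KO over WT were -0.37 for disease-associated microglia, -0.28 for homeostatic microglia and 0.03 for the type I interferon list. In the test of whether the knockout's effect differed with and without transgenes, edgeR and DESeq2 each called 0 genes. edgeR gave 480 of 21274 genes at an unadjusted p under 0.05, 306 of them with a more negative effect with transgenes. These included 14 of 46 type I interferon and 11 of 21 interferon gamma genes. They also included 7 of 30 disease-associated and 6 of 20 homeostatic microglia genes. In each of these lists 0 members went the other way at that threshold.

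Ripk1 D138N, which abolishes the kinase activity of RIPK1, was compared with 5xFAD in another cohort that shares no library with this one and whose counts form a separate table. The type I interferon list had a median of -1.59 in Ripk1 D138N 5xFAD over 5xFAD and -0.74 in Zbp1 KO 5xFAD over 5xFAD, whereas disease-associated microglia had -0.20 with Ripk1 D138N and -0.92 with the Zbp1 knockout. In Ripk1 D138N 5xFAD, 45 of 46 interferon genes were lower with groups that did not overlap (7.75% of all genes), while 6 of 30 disease-associated microglia genes had an unadjusted p under 0.05 with a lower level (5.75% of all genes). A fit of all 24 hippocampal libraries tested the difference between the knockout's and the mutant's effects gene by gene. edgeR called 0 of 22565 genes and gave 1064 at an unadjusted p under 0.05 (4.72%). Among these were 22 of the 46 interferon genes and 14 of the 30 disease-associated microglia genes. So were 12 of the 20 homeostatic microglia genes and 15 of the 30 lysosomal genes. They also held 15 of the 21 activity-regulated genes, the list with the largest median difference (1.57). The activity-regulated median was -1.72 in Ripk1 D138N 5xFAD over 5xFAD and 0.07 in Zbp1 KO 5xFAD over 5xFAD. DESeq2 called 10 genes. Of the interferon gamma and antigen presentation lists, 1 of 21 and 1 of 24 members differed at an unadjusted p under 0.05, near the share of all genes. Gpnmb had a difference of -1.47 (DESeq2, adjusted p = 0.0223), and in the other cohort it had 53.4, 47.0 and 46.7 CPM in Ripk1 D138N 5xFAD and 46.8, 47.3 and 44.6 CPM in 5xFAD. Oasl2 had a difference of 1.49 in the opposite direction (DESeq2, adjusted p = 0.0411), with 12.7, 13.4 and 8.39 CPM in Ripk1 D138N 5xFAD and 84.6, 49.9 and 57.4 CPM in 5xFAD. The 5xFAD libraries of the Ripk1 cohort therefore started from a higher Oasl2 level than the 22.8 to 24.98 CPM in 5xFAD here. For Gpnmb, libraries 5xFAD 1 and 5xFAD 2 here lay above every 5xFAD library of the Ripk1 cohort, and 5xFAD 3 here lay below them. What part these levels have in the differences was not tested. DESeq2 also called Isg15, Ifit1, Ifit3, Ide and Cyp4f41-ps with positive differences, and Rassf4, Fmnl3 and Nfatc1 with negative ones. Without 5xFAD 3, edgeR called 8 genes, each with a negative difference.

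**Figure D5:**
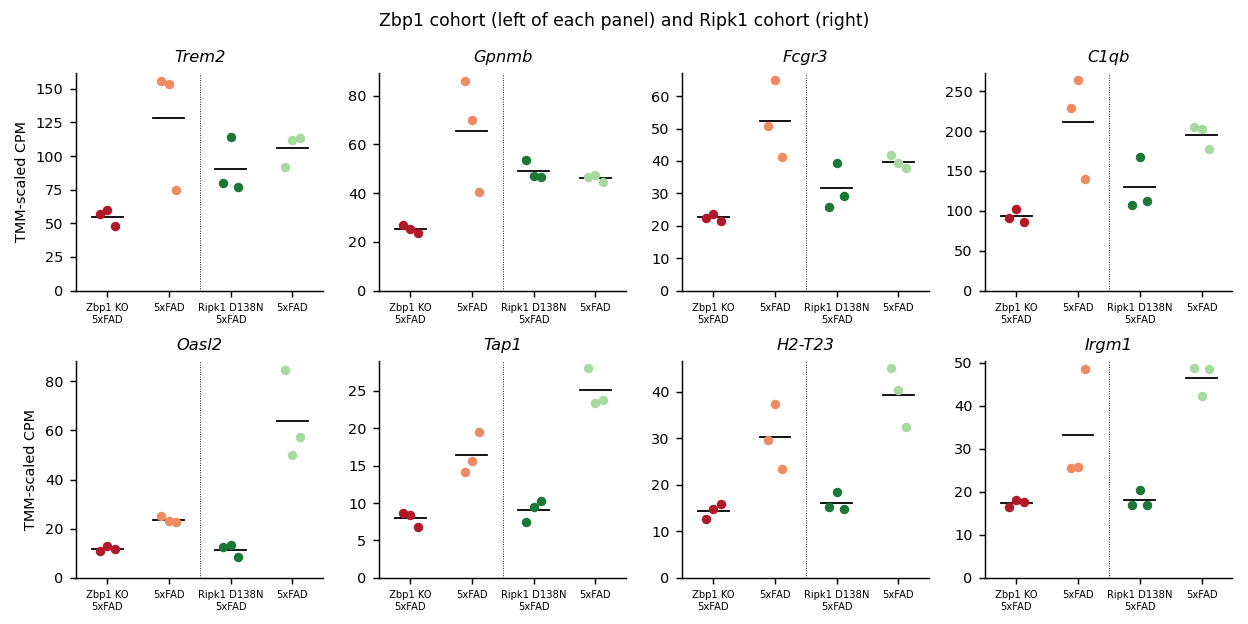
TMM-scaled CPM per library (y axis, from 0) of 8 genes in Zbp1 KO 5xFAD and 5xFAD of the Zbp1 cohort (left of the dotted line) and in Ripk1 D138N 5xFAD and 5xFAD of the Ripk1 cohort (right), with 1 point per library and a line at the mean of 3; the cohorts were scaled separately. Trem2, Gpnmb and Fcgr3 are lower in Zbp1 KO 5xFAD than in its 5xFAD libraries and overlap in the Ripk1 cohort, and C1qb, Oasl2, Tap1, H2-T23 and Irgm1 are lower than 5xFAD in both mutants.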

How the data were processed

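Counts are whole numbers of reads per Ensembl gene, deposited by the authors in 1 table per cohort. HISAT2, DESeq2 1.42.1 and edgeR 4.0.16 are named in the submitters' processing notes, with builds mm10 (GRCm38) and mm39 (GRCm39). Which build served which step, how reads were counted and whether strand was used is not given in the sources read, so overlapping genes and near-identical copies are uncertain. The authors' deposited comparison table holds a log2 fold change, a p-value and a mean signal over libraries per gene, per the file headers.

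All other values were computed from the counts in R 4.3.3 with edgeR 4.0.16, DESeq2 1.42.0 and limma 3.58.1. The 12 libraries of the Zbp1 cohort were fitted together in edgeR (filterByExpr, TMM, quasi-likelihood, 1 mean per genotype), with a Benjamini-Hochberg adjusted p threshold of 0.05 over 21274 genes; the cohorts were compared in 1 fit of 24 libraries. The SE is the log2 fold change divided by the square root of F. Medians of log2 CPM used a prior count of 2. Calls per list were read without set tests. Of 55487 IDs, 55141 matched a symbol. The steps were checked on simulated data. Replicates were not duplicates of 1 library: the chi-square of each pair was 7.76 to 87.5 times its degrees of freedom. Promoter sequences came from RefSeq (GRCm38.p6).

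Named genes are the targets and transgene-related genes, the 12 genes of smallest p in each direction that did not overlap between groups, and the members of each list with the smallest p and highest CPM, of which a few are not reported here; others are named as chosen after their values were seen or as described by the comparison they belong to. The comparison, lists and rules were chosen with earlier results of these data known. Alternatives were other tools, scalings, filters, library sets, a replicate block and Thy1 as a covariate.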

Additional observations from a re-analysis of the deposited data

How the results depend on the processing

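In Zbp1 KO 5xFAD against 5xFAD, edgeR called 0 genes in the design used and 0 with RLE size factors, library size alone, a filter at CPM of 1 in 3 libraries, the 6 libraries alone or Thy1 as a covariate, as did limma-voom. DESeq2 called 156 genes (3 higher, 153 lower), and edgeR 498 with no filter on low counts (61 higher, 437 lower) and 99 with the 24 libraries of both cohorts (1 higher, 98 lower). Leaving out 1 library at a time gave 0 to 82 calls: 82 lower without 5xFAD 3, 1 lower without 5xFAD 1 (Gm4202), 1 lower without WT 2 (Fcgr3) and 0 otherwise, with 0 called higher in each case. Without both libraries low in Malat1 (5xFAD 2 and WT 2), an alternative chosen after seeing the data, 4 genes were called lower, Fcgr3, Gbp3 and Rnf213 among them. With a replicate block 41 genes were called (1 higher, 40 lower), 38 of the lower ones also among the DESeq2 calls, and the block on the 6 libraries alone called 0. Libraries of the same number in both groups shared only a number: their deviations correlated at 0.178, -0.00928 and 0.0205. In Zbp1 KO against WT, DESeq2 called 1 gene (higher) and edgeR with no filter 94 (21 higher, 73 lower); leaving out any 1 library gave 0. The interaction gave 29 genes with no filter (13 higher, 16 lower). The difference from the Ripk1 D138N effect gave 10 genes in DESeq2 (6 higher, 4 lower) and 0 to 8 when 1 library was left out, with 8 lower without 5xFAD 3. Named genes turned sign in 8 of 1822 recomputed values: Mlkl was 0.15 without Zbp1 KO 5xFAD 3 and 0.19 without 5xFAD 3 (range -0.49 to 0.19 over single omissions), Thy1 6.1e-06 with itself as the covariate, Slc1a2 -0.0060 without both libraries low in Malat1, Ttr 0.79 in limma-voom and 0.51 in the 6 libraries with a replicate block, and Hba-a1 0.40 without 5xFAD 2 (range -1.52 to 0.40 over single omissions) and 0.38 without both libraries low in Malat1. Of 840 list medians, 812 moved by less than the spread between libraries. The cause of these changes was not tested. Zbp1 rests on 9 to 11 counts per knockout library with transgenes.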

Other observations

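A group of neighbouring genes, Ide, Btaf1 and Fgfbp3, was chosen after its values were seen. Ide, which encodes the insulin-degrading enzyme that can also cleave amyloid beta, had 86.6, 124 and 124 CPM in Zbp1 KO 5xFAD and 89.3, 59.3 and 66.8 CPM in 5xFAD, where the groups overlapped (log2 fold change 0.63 ± 0.19). Without transgenes it had 117, 117 and 115 CPM in Zbp1 KO and 86.8, 60.2 and 51.6 CPM in WT, without overlap (0.83 ± 0.19). Btaf1, a regulator of the TATA-binding protein, had 72.6, 91.7 and 92.0 CPM in Zbp1 KO 5xFAD and 68.6, 42.9 and 66.9 CPM in 5xFAD, and 98.9, 90.6 and 81.4 CPM in Zbp1 KO and 73.0, 49.8 and 47.4 CPM in WT. In the Ripk1 cohort Ide was lower with the mutation, at 59.5, 55.8 and 64.4 CPM in Ripk1 D138N 5xFAD and 87.5, 86.9 and 80.0 CPM in 5xFAD.

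Of the 109 genes lower in Zbp1 KO at an unadjusted p under 0.05 both with and without transgenes, 76 did not overlap in either setting. The 109 were picked by p-values from the same libraries, so frequent non-overlap is largely built in. Over all genes, 7.89% were lower without overlap with transgenes and 5.57% without transgenes. The share of all genes in both settings was not computed. Cd52, a surface glycoprotein of leukocytes and microglia, had log2 fold changes of -1.05 ± 0.35 with transgenes and -1.36 ± 0.44 without. Lgals3, which encodes galectin 3, had -0.96 ± 0.29 with transgenes and -1.24 ± 0.32 without. Clic1, a chloride channel protein, had -0.81 ± 0.21 with transgenes and -0.80 ± 0.22 without.

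RNA bound by ZBP1 was measured in 1 immunoprecipitate and 1 input library of 5xFAD, with 6808879 and 9444018 counts, so there is no replicate check. The 145 genes that DESeq2 called lower and that had at least 10 input counts had a median log2 ratio of immunoprecipitate over input of -0.45, and all 15694 genes with that many counts had -0.45. Fcgr3 had 13 immunoprecipitate counts and 11 input counts, a ratio of 1.64 (95% interval 0.678 to 4.04, counting error only). Of the 12 genes of smallest p that were lower, 5 had an interval wholly below 1 and 0 had one wholly above 1. The 5 were Ctss (0.181), H2-T23 (0.245), Trem2 (0.292), Laptm5 (0.412) and Tap1 (0.473). A ratio of 1 is not the level of a typical gene here, as the median log2 ratio over all genes was -0.45. Of the 5, Ctss alone had an interval wholly below that median (upper end 0.599). The intervals of Laptm5 (upper end 0.826), H2-T23 (0.846), Tap1 (0.866) and Trem2 (0.879) reached above it.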
